A study of Mus musculus with 6 samples.

Results

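Store-operated calcium entry is the route by which many cells refill and signal with calcium once the endoplasmic reticulum has released its own. The STIM proteins span the membrane of the endoplasmic reticulum and sense its calcium content, and the ORAI proteins form the highly calcium-selective channel in the plasma membrane that STIM opens. SARAF, a further protein of the endoplasmic reticulum, turns this entry down. Of the 26532 genes in the expression table, 6 make up this set and are described here: the channel genes Orai1, Orai2 and Orai3, the sensor genes Stim1 and Stim2, and Saraf. They were chosen by name and found through their Entrez numbers.

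RNA was sequenced from mouse embryonic fibroblasts (MEFs), which the labels also call mesenchymal stem cells and list as undergoing osteogenic differentiation in every library. The AdORAI2 group, with the genotype given as ORAI2 overexpression, had 3 libraries from cells carrying a recombinant adenovirus with ORAI2. The AdGFP group, with the genotype given as WT, had 3 libraries from cells carrying an adenovirus that the title names for GFP. The series title concerns osteogenic differentiation induced by BMP9, but the labels do not say whether BMP9 was added, how long the cells were kept, which species' ORAI2 was supplied or which promoter drives it. Nor do they say that libraries of the same group are separate cultures, so the p-values measure the spread among these samples alone, and that spread may be technical.

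Total counts per library were between 18526884 and 18844436. Levels are given as CPM, counts scaled to the size of the library with TMM (a correction for library composition), and a gene was called at an adjusted p under 0.05 in edgeR's quasi-likelihood test over 13764 genes. By that rule 42.9% of all tested genes were called, 20.8% as higher and 22.1% as lower in AdORAI2. Of 12 mesenchymal and fibroblast markers, 11 were well counted, among them Nt5e, Eng, Cd44 and Pdgfra, whereas Thy1 had at most 3 counts in a library. Their summed level was between 2478 and 2539 CPM in AdORAI2 libraries and between 3435 and 3629 CPM in AdGFP libraries. That difference was mostly Col1a1, at 486 CPM in AdORAI2 and 1257 CPM in AdGFP. Of the 11 tested, 7 fell, 2 rose (Alcam and Cd44) and 2 did not pass (Itgb1 and Nt5e). The macrophage list summed to between 26.3 and 35.8 CPM in AdORAI2 libraries and between 51.6 and 55.7 CPM in AdGFP libraries, with Ptprc, Csf1r and Itgam at most at 4 counts in a library and Adgre1 and Tyrobp not analysed here. The endothelial list summed to between 16.3 and 17.5 CPM in AdORAI2 libraries and between 6.42 and 8.88 CPM in AdGFP libraries, with Pecam1, Cdh5 and Tek at most at 7 counts. The epithelial and neural lists were at 4.21 to 5.12 and 163 to 174 CPM in AdORAI2 libraries and at 2.74 to 3.74 and 132 to 144 CPM in AdGFP libraries, with Epcam at 0 counts in every library. These sums are scaled to the library total without TMM, and the part of these cells in the results was not tested. In bulk RNA, fewer cells of a type and less RNA per cell cannot be told apart.

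The 3 ORAI genes encode related channels, so it matters whether reads of the supplied gene could be counted for its relatives. Between Orai2 and Orai1 the coding sequences of the GENCODE vM21 annotation (GRCm38) aligned with 71.6% identical bases, between Orai2 and Orai3 with 73.4%, and between Orai1 and Orai3 with 72.6%. The longest run that Orai2 (chromosome 5) shares exactly with Orai3 (chromosome 7) is 29 bases, coding bases 256 to 284 of Orai2 and 217 to 245 of Orai3. It lies in the part that encodes the first transmembrane helix, which lines the pore. With Orai1 (chromosome 5) the longest exact run is 18 bases, coding bases 476 to 493 of Orai2 and 518 to 535 of Orai1. These runs are shown because they are the places where the genes are hardest to tell apart. Capitals mark the identical run, and 3 bases are given on each side.
Orai2, with Orai3: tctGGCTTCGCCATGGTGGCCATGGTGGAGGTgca
Orai3, with Orai2: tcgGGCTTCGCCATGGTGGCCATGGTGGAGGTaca
Orai2, with Orai1: cgtACATCGAGCTGGCCTGGGgct
Orai1, with Orai2: gccACATCGAGCTGGCCTGGGcct

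No stretch of 31 bases was common to the annotated mouse transcripts of any pair of these 6 genes. The labels do not give the species of the supplied ORAI2, so its own sequence could not be compared. Whether its reads were counted for Orai1 or Orai3 was not tested. Of the distinct stretches of 31 bases in each gene, on either strand, none of those of Orai1 or Saraf occurred in a transcript of another gene, and 0.721% of Orai2's, 0.277% of Orai3's, 0.250% of Stim1's and 1.28% of Stim2's did. The only exonic overlap with another gene was that of Orai1 with the antisense gene Gm2479, over 7 bases. Gm2479 had 5 counts over all libraries, against 2140 for Orai1.

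Orai2, the supplied gene, had 67882, 53034 and 45140 counts in AdORAI2 libraries 1 to 3, against 994, 914 and 909 counts in AdGFP libraries 1 to 3. The 59.2-fold difference in level (95% interval 48.3 to 72.4, adjusted p = 7.02e-11) checks the labels and is not a finding. What the counts add is the spread: the AdORAI2 libraries differed among themselves by more than counting error, with 95% Poisson intervals of 67372 to 68395, 52584 to 53487 and 44725 to 45558 counts, which do not overlap. The coefficient of variation of the Orai2 level was 20.8% in AdORAI2 and 5.25% in AdGFP. For the other 5 genes it was between 1.05% and 5.83% in AdORAI2 and between 0.667% and 5.24% in AdGFP. The intervals cover counting error only. The count table does not separate transcripts of the cells' own Orai2 from those of the adenovirus, so the level of the cells' own gene in AdORAI2 libraries could not be read.

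**Figure D1:**
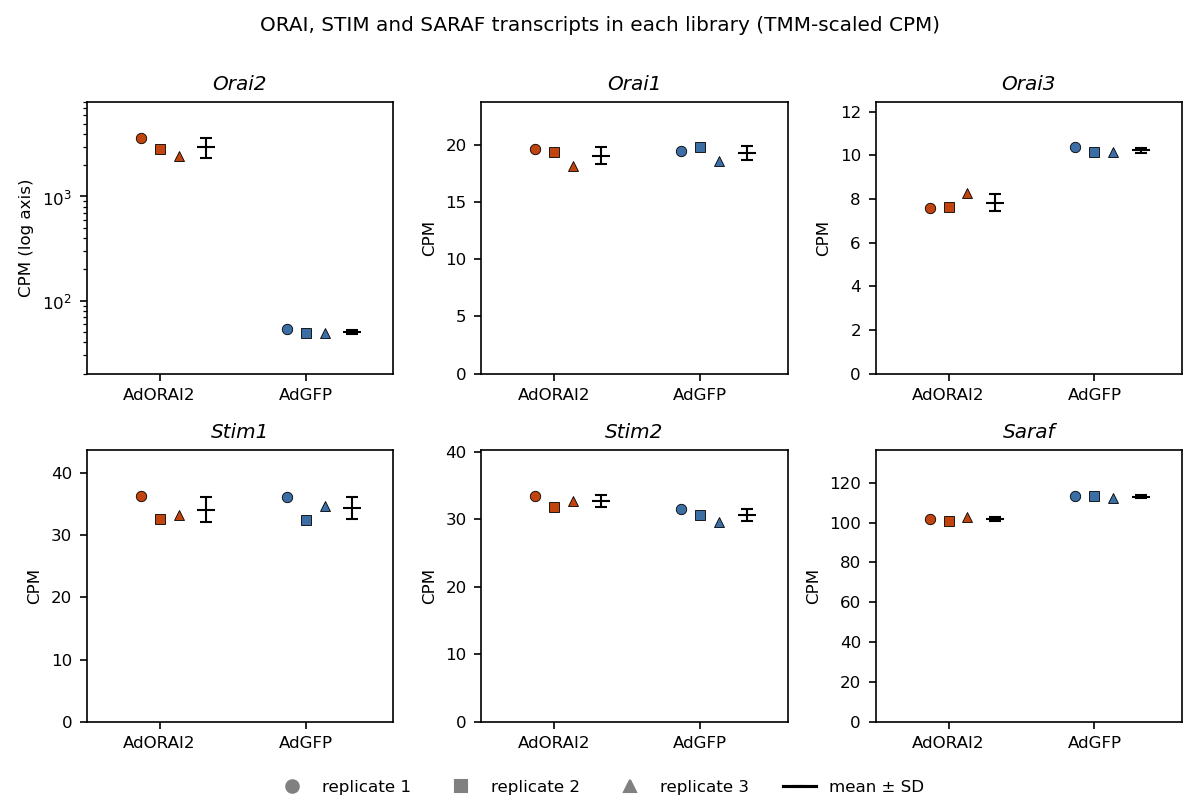
Level of each gene in each library in TMM-scaled CPM, with AdORAI2 on the left and AdGFP on the right of each panel. Points are libraries, with shapes for replicate numbers, and the bar beside them is the mean ± SD (n = 3). Orai2 is on a log axis and all other axes start at 0. Orai3 and Saraf lie lower in all 3 AdORAI2 libraries, Orai1 and Stim1 overlap, and Stim2 lies slightly higher in AdORAI2.

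Orai2 made up 99.3%, 99.1% and 98.9% of the ORAI counts in AdORAI2 libraries, with exact binomial 95% intervals of 99.2% to 99.3%, 99.0% to 99.1% and 98.8% to 99.0%. In AdGFP libraries it made up 64.2%, 62.1% and 62.9%, with intervals of 61.7% to 66.6%, 59.5% to 64.5% and 60.3% to 65.4%. Counts depend on transcript length, so the 3 channels were also set side by side as CPM per kb of their longest annotated transcript. On that scale the AdGFP cells held 12.6 ± 0.662 CPM per kb of Orai2, 10.3 ± 0.324 of Orai1 and 4.78 ± 0.0513 of Orai3 (SD, n = 3), that is, 45.6%, 37.1% and 17.3% of their sum. Orai2 was thus the ORAI gene with the highest level per kb in the control cells, ahead of Orai1 by more than the spread between libraries. In AdORAI2 cells Orai2 made up 98.1%, Orai1 1.37% and Orai3 0.497% of the sum per kb. The labels do not give the length of the supplied transcript, so the share per kb of Orai2 in AdORAI2 is approximate.

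**Figure D2:**
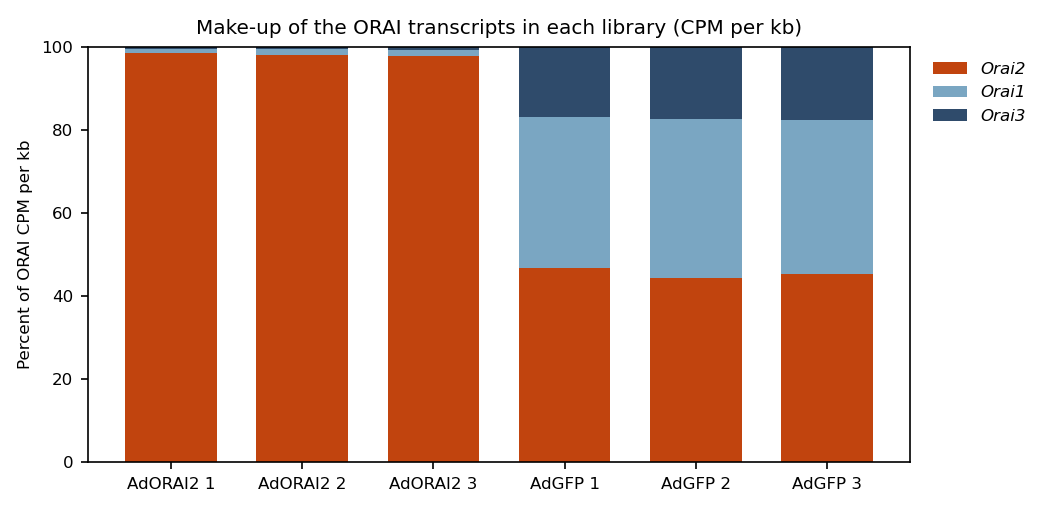
Share of Orai2, Orai1 and Orai3 in the summed CPM per kb of the 3 ORAI genes, in percent, for each AdORAI2 library (left) and each AdGFP library (right). Orai2 takes between 97.8% and 98.5% in AdORAI2 libraries and between 44.5% and 46.8% in AdGFP libraries.

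Among the 5 genes that were not supplied, Orai3 and Saraf fell and Orai1, Stim1 and Stim2 did not pass the test. That is 2 of 5 called, or 40.0%, beside 42.9% of all tested genes. The groups did not overlap for 3 of the 5, beside 52.8% of all tested genes: 1 lay higher in AdORAI2 (Stim2), beside 26.2%, and 2 lower (Orai3 and Saraf), beside 26.6%. The median log2 fold change of the 5 was -0.02, against 0.00 over all tested genes (-0.00179).

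Orai1 encodes the main pore subunit of the store-operated channel in most cells. It was at 19.6, 19.3 and 18.2 CPM in AdORAI2 libraries, against 19.4, 19.7 and 18.6 CPM in AdGFP libraries. The groups overlapped. The log2 fold change was -0.02, with a 95% interval of -0.17 to 0.13 (SE 0.07, adjusted p = 0.875), so these libraries leave room for a change of 0.891-fold to 1.10-fold. The level of Orai1 was above that of 42.6% of tested genes in AdORAI2 and 41.8% in AdGFP.

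Orai3 encodes a subunit that can join ORAI1 in channels gated by arachidonic acid or its products. It was at 7.59, 7.63 and 8.28 CPM in AdORAI2 libraries (141, 143 and 153 counts), against 10.4, 10.2 and 10.2 CPM in AdGFP libraries (193, 190 and 190 counts). Every AdORAI2 library lay below every AdGFP library. The level fell to 7.83 ± 0.382 CPM in AdORAI2, against 10.2 ± 0.11 CPM in AdGFP, a 1.31-fold difference (log2 fold change -0.39, SE 0.09, 95% interval -0.58 to -0.19, adjusted p = 0.00394). Of all tested genes, 13.6% had a lower log2 fold change than Orai3 and 21.5% a larger absolute change. Within AdORAI2, the library with the most Orai2 counts had the fewest Orai3 counts and the library with the fewest Orai2 counts the most. The 95% Poisson intervals of those Orai3 counts, 119 to 166 and 130 to 179, overlap. Orai1 counts ran the other way, at 364, 362 and 336 in AdORAI2 libraries 1 to 3. Those of Stim1, Stim2 and Saraf followed neither order. The order of 3 libraries was seen in the data and was not tested.

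Stim1 encodes the principal sensor of store calcium. It was at 36.4, 32.6 and 33.3 CPM in AdORAI2 libraries, against 36.1, 32.5 and 34.6 CPM in AdGFP libraries. The groups overlapped, and the spread within each was larger than the difference between their means, 34.1 and 34.4 CPM. The log2 fold change was -0.01, with a 95% interval of -0.15 to 0.12 (SE 0.06, adjusted p = 0.891), or 0.904-fold to 1.09-fold.

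Stim2 encodes a sensor that responds to smaller falls in store calcium and helps to set the resting calcium level. It was at 33.5, 31.8 and 32.8 CPM in AdORAI2 libraries, against 31.5, 30.7 and 29.7 CPM in AdGFP libraries. All AdORAI2 libraries lay above all AdGFP libraries, but by little: the closest pair stood at 31.8 and 31.5 CPM. The log2 fold change was 0.10 (SE 0.05, 95% interval -0.02 to 0.21) and did not pass the test (adjusted p = 0.174, unadjusted p = 0.0993).

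Saraf encodes the protein that promotes the slow inactivation of store-operated entry. It was at 102, 101 and 103 CPM in AdORAI2 libraries, against 114, 113 and 112 CPM in AdGFP libraries. The groups did not overlap, and the spread within each was about 1 CPM. The level fell to 102 ± 1.07 CPM in AdORAI2, against 113 ± 0.754 CPM in AdGFP, a 1.11-fold difference (log2 fold change -0.15, SE 0.03, 95% interval -0.23 to -0.08, adjusted p = 0.00339). This was a small change among those measured, since 56.1% of tested genes had a larger absolute change.

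Set side by side per kb, the order of the genes in AdORAI2 was Orai2, Saraf at 43.3 ± 0.455, Orai1 at 10.2 ± 0.405, Stim1 at 7.82 ± 0.456, Stim2 at 6.63 ± 0.171 and Orai3 at 3.66 ± 0.179 CPM per kb (SD, n = 3). In AdGFP it was Saraf at 48.1 ± 0.321, Orai2, Orai1, Stim1 at 7.88 ± 0.413, Stim2 at 6.2 ± 0.183 and Orai3. The library ranges of neighbours did not overlap in either order. The closest were Stim1 and Stim2, at 7.48 to 8.33 and 6.45 to 6.79 CPM per kb in AdORAI2. The longest annotated Saraf transcript, of 2351 bases, retains an intron. With its longest coding transcript, of 1860 bases, Saraf was at 60.8 CPM per kb in AdGFP.

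Ratios of counts within a library do not depend on scaling between libraries, and 4 of them were compared. Orai3 to Orai1 was 0.387, 0.395 and 0.455 in AdORAI2 libraries, against 0.533, 0.515 and 0.548 in AdGFP libraries. The ratio of these unsupplied channels was 0.774 times as high in AdORAI2, with no overlap. Saraf to Stim1, the inhibitor to the sensor it acts on, was 2.80, 3.09 and 3.08 in AdORAI2 libraries, against 3.15, 3.49 and 3.24 in AdGFP libraries. It was 0.908 times as high in AdORAI2, also without overlap, although the gap between the highest AdORAI2 and the lowest AdGFP library was narrow. The summed counts of Orai1 and Orai3 relative to those of Stim1 and Stim2 were 0.389, 0.418 and 0.400 in AdORAI2 libraries, against 0.441, 0.474 and 0.447 in AdGFP libraries, 0.887 times as high. Stim2 to Stim1 was 0.921, 0.975 and 0.984 in AdORAI2 libraries, against 0.872, 0.944 and 0.856 in AdGFP libraries, and the groups overlapped. In exact two-sided permutation tests p was 0.1 for each of the first 3 and 0.2 for Stim2 to Stim1 (0.133 and 0.2 after Benjamini-Hochberg adjustment over the 4), and 0.1 is the smallest p that 3 libraries against 3 allow. None of these ratios could therefore pass a threshold of 0.05.

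**Figure D3:**
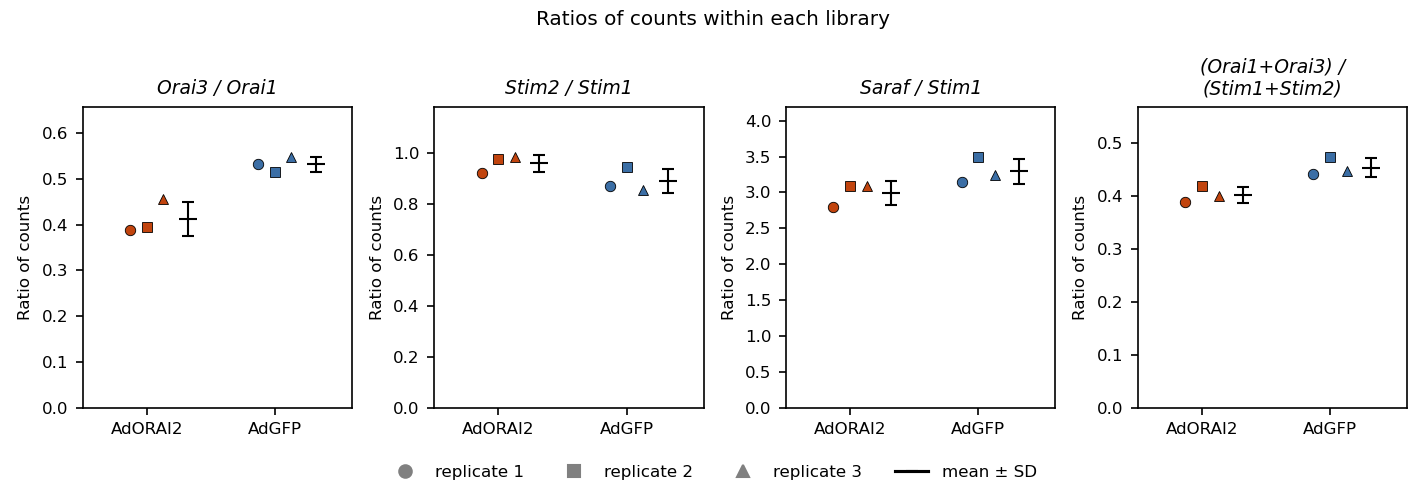
Ratios of counts within each library, AdORAI2 left and AdGFP right in each panel, on axes that start at 0. Points are libraries and bars the mean ± SD (n = 3). Orai3 to Orai1 lies between 0.387 and 0.455 in AdORAI2 and between 0.515 and 0.548 in AdGFP.

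The proteins that work with STIM and ORAI were followed through a list of 25 partners and modulators, of which 19 were tested. Of these, 5 rose, 5 fell and 9 did not pass, and 52.6% were called beside 42.9% of all tested genes. The median log2 fold change of the list was 0.02. This list and those of other channels and of stores were chosen with earlier results of these data known, and no share was tested. Cav1, which encodes caveolin-1, the coat protein of caveolae, was at 105, 114 and 98.3 CPM in AdORAI2 libraries, against 68.5, 69.6 and 63.3 CPM in AdGFP libraries. It rose 1.57-fold (log2 fold change 0.65, SE 0.06, adjusted p = 1.62e-06), and the groups did not overlap. Homer3, a scaffold protein that binds calcium channels, rose 1.17-fold to 67.6 ± 2.57 CPM, against 57.9 ± 3.65 CPM in AdGFP (adjusted p = 0.00416).

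Esyt1 and Ahcyl1 were the clearest falls of that list. Esyt1, a tether between the endoplasmic reticulum and the plasma membrane, was at 155, 158 and 149 CPM in AdORAI2 libraries, against 200.3, 196 and 193 CPM in AdGFP libraries, 1.28-fold lower (adjusted p = 7.32e-06). Its relative Esyt2, another such tether, rose by 0.11 on the log2 scale (adjusted p = 0.0155). Ahcyl1, which encodes IRBIT, a protein that binds the inositol trisphosphate receptor, was 1.21-fold lower, at 370 ± 1.67 CPM in AdORAI2 and 449 ± 11.6 CPM in AdGFP (adjusted p = 3.34e-05). Stimate, which encodes a STIM activator at junctions between these membranes, was at 23 ± 1.21 CPM in AdORAI2 and 25.6 ± 0.513 CPM in AdGFP and did not pass (adjusted p = 0.0659). Mapre1, Sppl3, Pdia3, Asph and Itpkb were the other members called, with log2 fold changes of 0.14, 0.13, -0.13, -0.13 and -0.32. Asph (adjusted p = 0.049) lost its call without AdORAI2 replicate 1 or 2 or any single AdGFP library, and Sppl3 without replicate 1 or 3 of either group. Jph4, Homer2, Septin4, Atp2c2 and Efhb did not pass the low-count filter and never exceeded 12 counts, and Tmem178 was not analysed here. No source used here says whether counting used strand, and several of these genes share exonic bases with a gene on the opposite strand, so their values are uncertain to that extent: 2302 bases for Asph, 874 for Homer3, 607 for Sppl3 and 421 for Esyt1, with at most 66 for the others called.

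Calcium can also enter through other channels. Of the TRPC genes analysed here, Trpc1 passed the low-count filter, at 29.2 ± 0.776 CPM in AdORAI2 and 28 ± 0.752 CPM in AdGFP (log2 fold change 0.06, adjusted p = 0.407), while Trpc4, Trpc5 and Trpc6 never exceeded 5 counts, at which depth no difference was detectable. Of 10 tested genes of channels and channel subunits outside the ORAI and TRPC families, 4 rose, 2 fell and 4 did not pass. That is 60.0% called beside 42.9% of all tested genes, with a median log2 fold change of -0.02. The share includes Cacna1g, which passed the low-count filter only through AdGFP, where it was higher. The list was chosen with earlier results known, so no excess is read from its share. Not every gene of this list encodes a calcium-permeable pore: Trpm4 and Cacna2d1, which do not, were among those that did not pass. P2rx7, a channel opened by extracellular ATP, was at 47.3, 49.8 and 34.8 CPM in AdORAI2 libraries, against 17, 22 and 17.6 CPM in AdGFP libraries (log2 fold change 1.22, SE 0.13, adjusted p = 8.61e-06). Its AdORAI2 libraries were widely spread but stayed above all AdGFP libraries.

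Piezo1, a channel opened by membrane stretch, was at 426, 421 and 397 CPM in AdORAI2 libraries, against 307, 313 and 297 CPM in AdGFP libraries (log2 fold change 0.44, SE 0.04, adjusted p = 2.05e-06). It shares 2441 of its exonic bases with Ctu2 on the opposite strand. Trpm7, a channel joined to a kinase domain, rose to 266 ± 2.02 CPM, against 224 ± 1.98 CPM in AdGFP (log2 fold change 0.25, adjusted p = 6.01e-05). Cacna1c, the pore of a voltage-gated L-type channel, was 1.21-fold lower, at 68.5 ± 3.92 CPM in AdORAI2 and 83.1 ± 4.55 CPM in AdGFP (adjusted p = 9.13e-04). Pkd2 and Cacna1g were the other calls, with log2 fold changes of 0.18 and -1.44, the second from only 0.43 CPM in AdORAI2 and 1.18 CPM in AdGFP. Cacna1g had 8, 7 and 9 counts in AdORAI2 libraries and 26, 19 and 21 counts in AdGFP libraries. It thus passed the low-count filter only through the AdGFP group, where it was higher. The falls and the share called given above for these channels include it.

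Of 14 tested genes of store release, pumps and mitochondrial uptake, 1 rose, 6 fell and 7 did not pass, so 50.0% were called. Over all tested genes 42.9% were called, 20.8% as higher and 22.1% as lower. Atp2a2, the pump that fills the stores, was the member that rose, to 1113 ± 5.77 CPM in AdORAI2, against 904 ± 14.4 CPM in AdGFP (log2 fold change 0.30, adjusted p = 1.50e-05). Itpr2, Atp2a3 and Micu2 fell most clearly, by 0.39, 0.66 and 0.20 on the log2 scale (adjusted p = 0.000216, 0.000636 and 0.00305). Itpr2 encodes a channel that releases store calcium, Atp2a3 another store pump and Micu2 a regulator of mitochondrial calcium uptake. The median log2 fold change of the list was -0.11, against -0.00179 over all tested genes. The count of falls on the list was 3 without AdGFP replicate 1, 3 with no low-count filter and 3 with DESeq2, against 8 with upper quartile scaling. Over all tested genes the falls in these fits numbered 2646, 2882, 2330 and 3344, in that order. Itpr1 and Atp2b4 also fell, and both lost their calls in the first 3 of these fits.

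For each of the 6 genes, the 3 genes of most similar pattern were taken by Pearson's r of log2 CPM over the 6 libraries, among 10123 candidates of at least 5 CPM. The libraries form 2 groups, so for a gene that differs between them r mostly reflects that difference. For any gene, the highest r among 10123 candidates over only 6 libraries can be high by chance, and no r was tested. For Orai2 they were Tfdp1, a partner of E2F factors, Tsr1, a ribosome assembly factor, and Fosl1, an AP-1 transcription factor, with r of 0.9997, 0.9996 and 0.9994 and log2 fold changes of 0.32, 0.42 and 1.30. For Orai3 they were Cyp4v3, Mical2 and Tmtc4, with r of 0.9998, 0.999 and 0.9989. For Saraf they were Ctxn1, Cx3cl1 and Sfxn3, with r of 0.9994, 0.9989 and 0.998. For Stim2 they were Zfpm2, Psmd1 and Polr1e, with r between 0.993 and 0.996. The pattern of Orai1 was closest to those of Tmco4, Zfp677 and Ccdc57, with r between 0.967 and 0.980, and that of Stim1 to those of Cog2, Snrpg and Nbas, with r between 0.956 and 0.965. None of these last 6 genes was called.

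The deposited TPM columns, which entered no test, departed from the counts for Orai2 in replicate 3 of each group, most of all in AdORAI2. Orai2 was listed at 1429.5, 1241.34 and 36.33 TPM in the columns of AdORAI2 replicates 1, 2 and 3, against 24.8, 24.9 and 38.2 TPM in those of AdGFP replicates 1, 2 and 3. The column of AdORAI2 replicate 3 thus stood at the level of the AdGFP columns, although the count column of that name held 45140 counts. That of AdGFP replicate 3 listed 38.2 TPM with 909 counts, against 24.9 TPM with 914 counts for AdGFP replicate 2. Across 9301 well-counted genes, the log2 ratio of TPM to CPM was centred on the median of each column and then on that of each gene. The SD of what remained was 0.43 and 0.57 in the columns of AdORAI2 and AdGFP replicate 3, and between 0.12 and 0.15 in the other 4. For the other members the TPM columns and the counts showed the same order of the groups where the counts were called: Orai3 was at 7.98 to 8.69 TPM in AdORAI2 and 10.8 to 11.2 TPM in AdGFP, and Saraf at 112 to 125 TPM in AdORAI2 and 129 to 135 TPM in AdGFP. Without the count library AdORAI2 replicate 3 the log2 fold changes of Orai3 and Saraf were -0.42 and -0.15 (adjusted p = 0.0069 and 0.0109), and without AdGFP replicate 3 they were -0.39 and -0.16 (adjusted p = 0.00878 and 0.00565).

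**Figure D4:**
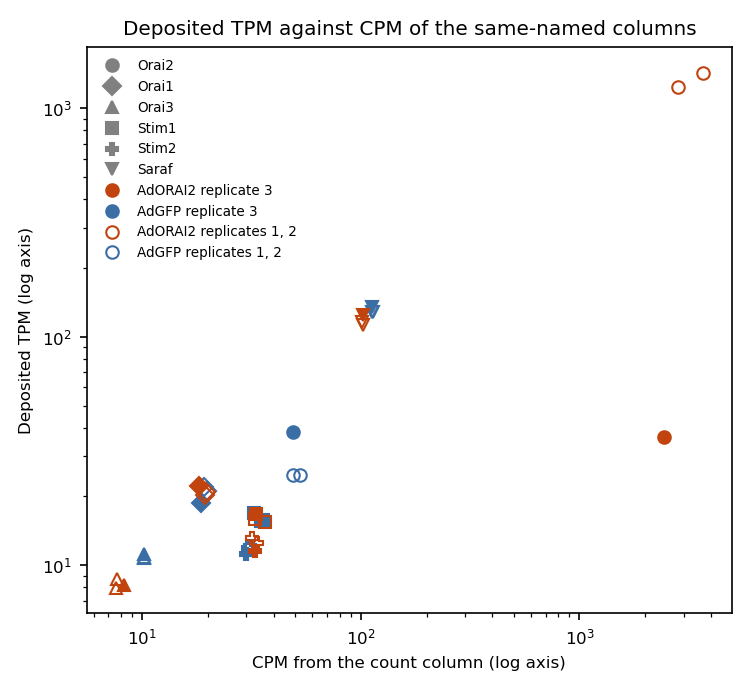
Deposited TPM (y axis) against CPM computed from the count column of the same name (x axis), both on log axes, for the 6 genes in all libraries. Shapes mark genes, red AdORAI2 and blue AdGFP, and filled points replicate 3. Orai2 in AdORAI2 replicate 3 is the point far to the right at 36.33 TPM.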

How the data were processed

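RNA from 3 AdORAI2 and 3 AdGFP libraries of mouse embryonic fibroblasts was purified on oligo(dT) beads and primed with random hexamers, per the labels' protocols. The build was GRCm39, and the tools named were Salmon 1.4.0 and HISAT2 2.0.4, per the submitters' processing notes. No source used here gives their roles, the annotation or the use of strand. Per the file headers, the authors deposited for each gene and library a count, which is whole, and a TPM value. No source says if these counts were rounded from estimates. The authors' TPM columns are described only, because those numbered 3 did not follow the counts.

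Symbols were found for 25631 of 26532 Entrez numbers (96.6%) in RefSeq (GRCm38.p6). As that build differs from the authors', no coordinates are given. Sequences, lengths and overlaps came from GENCODE vM21.

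Counts were tested in edgeR 4.0.16 (R 4.3.3) with glmQLFit and glmQLFTest, TMM normalisation, filterByExpr with a minimum count of 10, group as the only term and Benjamini-Hochberg adjustment. SEs and 95% intervals were derived from the F statistic. Errors of levels are SDs over 3 libraries. Ratios were tested with SciPy 1.17.1. Every pair of libraries within a group differed by more than sampling noise (chi-square per gene of at least 2.54).

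The members and the gene lists were chosen with earlier results of these data known. Named genes are the 6 members, up to 4 called genes of smallest p from each list, and for each member the 3 genes of highest r. Further list members named as values were chosen after their values were seen. Alternatives were RLE, upper quartile and library-size scaling, Orai2 left out of the scaling, DESeq2 1.42.0, limma-voom (limma 3.58.1), no low-count filter, at least 5 CPM in 3 libraries, replicate number as a block, robust fitting, a pseudocount of 5 in the ratios, and each library left out in turn.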

Additional observations from a re-analysis of the deposited data

Results flagged for a closer look

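Orai2 gave a signal in the deposited TPM columns, which lie outside the tested counts, at 1429.5 TPM in the column of AdORAI2 replicate 1 and 1241.34 TPM in that of AdORAI2 replicate 2, against at most 38.19 TPM in the AdGFP columns. The column of AdORAI2 replicate 3 listed 36.33 TPM. Groups of 3 libraries are too small for a search for outlying samples.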

How the results depend on the processing

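Over the 16 alternatives to the edgeR fit, Orai2, Orai3 and Saraf kept their direction and stayed past the threshold, and Stim2 stayed higher and short of it. The log2 fold change lay between 5.72 and 6.02 for Orai2, between -0.42 and -0.36 for Orai3 (adjusted p at most 0.0396, with DESeq2) and between -0.17 and -0.14 for Saraf (adjusted p at most 0.0169). Orai1 and Stim1, both close to 0, changed sign when single libraries were left out, with log2 fold changes between -0.042 and 0.022 for Orai1 and between -0.056 and 0.024 for Stim1, and passed in none of the 16. The number of called genes was between 4604 and 6246. Falls among the genes of other channels and channel subunits numbered 2, but 4 with upper quartile scaling and 1 with the filter at 5 CPM, which tests fewer genes. Falls among the store genes numbered 6, but 3 with no low-count filter, 3 with DESeq2, and 3 to 5 with a library left out, and 8 with upper quartile scaling. Over all tested genes falls numbered 3040, but 2882 with no low-count filter and 2330 with DESeq2. They numbered 2568 to 2927 with a library left out and 3344 with upper quartile scaling. The cause was not tested. Of the 23 called list genes, 18 kept their calls in every alternative that tested them, and 5 (Asph, Sppl3, Itpr1 and Atp2b4 among them) lost theirs in some, DESeq2 and no low-count filter among them. The ratios kept their direction in all 8 of their alternatives. Chosen after seeing the data, the longest coding transcript gave 60.8 CPM per kb for Saraf in AdGFP.

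The labels give both groups the replicate numbers 1 to 3. Deviations from the group means correlated at 0.14, 0.07 and 0.13 for pairs 1, 2 and 3, so the numbers were not taken to pair the libraries, although each library correlated best with its own number, a hint from the data and not the design. With the replicate block 6246 genes were called, against 5909 without it, Orai3 and Saraf had log2 fold changes of -0.39 and -0.15, and exact sign-flip permutation tests of the paired ratios gave at least 0.25, the smallest p that 3 pairs allow.

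With 3 libraries a group, changes of Orai1, Stim1 and Stim2 inside their intervals were not detectable at this depth.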
